A study of Mus musculus with 6 samples.

Results

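Transcript levels of Pax7, the transcription factor that marks muscle satellite cells, and of 9 genes of the Notch pathway were compared between the gastrocnemius of aged and young mice. The genes were the ligands Dll1 and Jag1, the receptors Notch1, Notch2 and Notch3, the nuclear effector Rbpj and the target genes Hes1, Hey1 and Heyl. They were chosen by name and were found on the array through the RefSeq accession of each probe. The 10 genes were represented by 13 of 55669 probes, out of 36710 genes on the array. Of the 10 genes, 9 were bright enough to be tested, among 20900 genes tested in all, and Hes1 was not.

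The young group was 3 mice at 13 weeks of age and the aged group 3 mice at 26 months, all male and all C57BL/6J, an inbred strain, according to the labels and the methods of the study. The labels name no transgene and no treatment. Total RNA of the gastrocnemius, the main calf muscle, was taken from each mouse and measured on 1 single-colour Agilent array per mouse. The arrays measured whole muscle of males at 1 young and 1 old age, so no cell type was isolated and no age between the groups was sampled.

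Satellite cells are the stem cells of skeletal muscle. They lie between the muscle fibre and its basement membrane, stay quiescent in resting muscle, and carry Pax7. In the Notch pathway a ligand on one cell binds a receptor on its neighbour, the receptor is cut, and its intracellular part joins Rbpj in the nucleus, where genes of the Hes and Hey families are switched on. In muscle this pathway is known for keeping satellite cells quiescent, and in vessels the same genes act in endothelium and in the smooth muscle cells and pericytes around it.

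The promoter windows of Dll1 and Notch3 are shown because the probes of this ligand and this receptor did not overlap between the age groups, in opposite directions. Each window is the 250 bases before the transcription start in RefSeq on GRCm38.p6, written 5′ to 3′ along the gene, and both genes lie on the minus strand. Capitals mark the E-box CANNTG in the Dll1 window and the N-box CACNAG, on either strand, in the Notch3 window. These are letters known to be bound by basic helix-loop-helix factors, the family of Myod1 and of the Hes and Hey proteins.
Dll1, chr17:15376933-15377182, minus strand: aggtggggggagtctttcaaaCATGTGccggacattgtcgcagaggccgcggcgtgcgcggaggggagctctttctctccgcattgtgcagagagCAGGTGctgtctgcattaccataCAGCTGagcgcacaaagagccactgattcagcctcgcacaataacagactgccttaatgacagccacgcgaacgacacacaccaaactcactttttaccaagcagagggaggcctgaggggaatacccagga
Notch3, chr17:32166891-32167140, minus strand: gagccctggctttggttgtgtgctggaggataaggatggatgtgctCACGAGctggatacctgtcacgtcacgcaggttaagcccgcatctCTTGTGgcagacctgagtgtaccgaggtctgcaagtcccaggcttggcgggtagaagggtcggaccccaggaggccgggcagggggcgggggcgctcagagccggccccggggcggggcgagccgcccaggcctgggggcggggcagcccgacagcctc
The Dll1 window shown is the one before the outermost start of the gene in RefSeq, and a second Dll1 window at chr17:15375824-15376073 held 1 E-box and no N-box. The window shown held 3 E-boxes and no N-box, and the Notch3 window held 2 N-boxes and no E-box. A match is a description of the letters and not of binding. An E-box was present in 66.2% and an N-box in 36.7% of the 32851 promoter windows in the table. TGGGAA, the core bound by RBPJ, was searched on both strands and was present in 21.6% of all windows, while GTGGGAA, which contains it, was present in 5.42%. Promoter windows were at hand for 7 of the genes (Pax7, Notch1, Notch2, Notch3, Dll1, Jag1 and Rbpj). Among these, TGGGAA occurred in the windows of Rbpj itself and in no other.

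Signals are given as log2 of the processed signal relative to the 75th percentile of the same array, so that 0 is the level of that percentile and a step of 1 is a doubling. Levels were compared between mice for the same probe. The brightness of different probes served only to choose the probe of a gene and the genes named from lists of other cell types. The 75th percentile signal ranged over 243 to 355 in the young and 321 to 368 in the aged group. Between 48.7% and 53.8% of probes were well above background, and no spot was saturated. The tissue label was checked with a list of muscle fibre genes. All 11 that were measured, among them the sarcomere genes Tnnt3 and Actn3, were well above background in all 6 mice, with a mean log2 level of 8.69 to 9.01 in young mice and 8.50 to 8.78 in aged mice. All 6 arrays were on 1 slide, with the 3 young mice and aged mouse 1 in row 1 and aged mice 2 and 3 in row 2.

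None of the 9 genes tested passed an adjusted p of 0.05 in limma with Benjamini-Hochberg adjustment over all genes, whereas 0.249% of all genes did, 0.191% higher and 0.0574% lower in aged mice. At an unadjusted p under 0.05, which 14.7% of all genes reached, Dll1 was higher in aged mice, where 5.72% of all genes were so, and Notch3, Hey1 and Heyl were lower, where 9.02% were so. The same 4 genes were those whose groups did not overlap, as was the case for 22.3% of all genes, 1 of 9 higher against 7.38% of all genes and 3 of 9 lower against 14.9%. A difference between the 9 genes and these shares was not tested. With 3 mice a group, an exact two-sided permutation test cannot go below p = 0.1, the value it gave for each of these 4 genes. In whole muscle, fewer cells of a type and less RNA per cell cannot be told apart for any of the genes below.

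**Figure D1:**
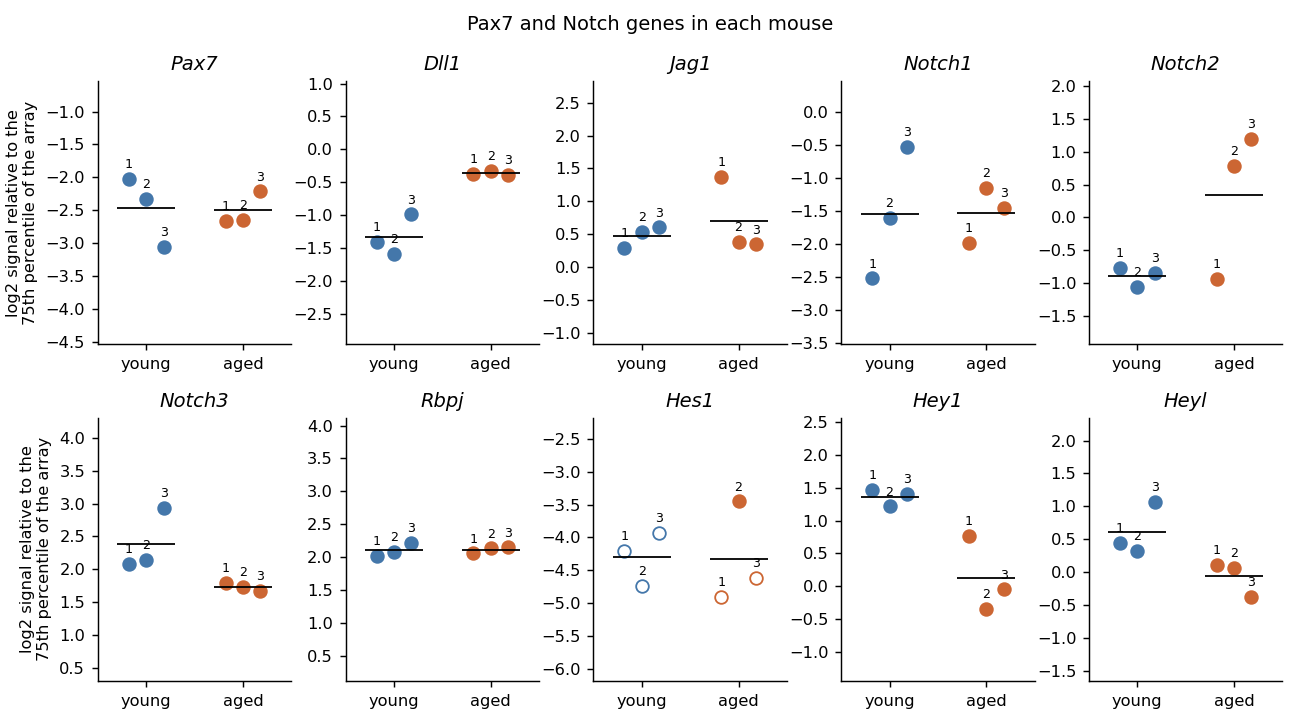
Each panel shows 1 gene, with the log2 signal relative to the 75th percentile of the array on the vertical axis over a range of the same height in every panel, 1 point per mouse numbered by mouse, and the group mean as a line. The open points of Hes1 were not well above background, Dll1 was higher in all 3 aged mice, and Notch3, Hey1 and Heyl were lower in all 3.

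Pax7 was measured by 1 probe that was well above background in all 6 mice. In the order of mice 1, 2 and 3, its log2 level was -2.02, -2.33 and -3.05 in the young and -2.66, -2.64 and -2.21 in the aged group. All values below follow this order. The aged mice lay within the range of the young mice. The difference, aged minus young, was -0.037 ± 0.29 (SE), or 0.974-fold, with an adjusted p of 0.961 in limma. Its 95% confidence interval ran from -0.74 to 0.66 on the log2 scale, so that a fall or a rise of that size was within the error. The direction depended on single mice, from -0.33 without young mouse 3 to 0.19 without young mouse 1.

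The genes whose pattern over the 6 mice was nearest to that of Pax7, by the root mean square difference of values centred on the mean of the gene, were Mtmr10 with 0.070, Tsc22d3 with 0.088 and Cers3 with 0.090. Mtmr10 is a myotubularin-related gene, Tsc22d3 is a glucocorticoid-induced gene, and Cers3 is a ceramide synthase gene. Their log2 differences were -0.06, -0.13 and -0.16. They were picked as the nearest among 13843 tested genes with a symbol, over only 6 values, and a link to Pax7 was not tested.

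Among the ligands, Dll1 had the smallest p of the 9 genes tested. This transmembrane protein binds Notch receptors on neighbouring cells and is known from differentiating myogenic cells. Its log2 level was -1.41, -1.60 and -0.99 in young mice and -0.38, -0.33 and -0.39 in aged mice. Every aged mouse was above every young mouse, and the aged mice differed by less among themselves (SD 0.031, n = 3) than the young mice did (SD 0.31, n = 3). The difference was 0.97 ± 0.20 (SE), or 1.96-fold, with a 95% confidence interval of 0.50 to 1.43 and an adjusted p of 0.137 in limma. It ranked 275th of 20900 genes by p.

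The Dll1 probe was spotted 10 times on each array, which shows the error within an array. The spots spread with an SD of 0.081 to 0.21 in young mice and 0.094 to 0.11 in aged mice on the log2 scale. The highest spot of any young mouse was at -0.87 and the lowest of any aged mouse at -0.54, so no spot of the groups overlapped. These repeated spots show how well each mouse was measured and add no mice. Within row 1 of the slide, aged mouse 1 was 0.96 above the mean of the young mice. The difference was 0.66 after normexp background correction, the smallest value over the alternative settings.

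**Figure D2:**
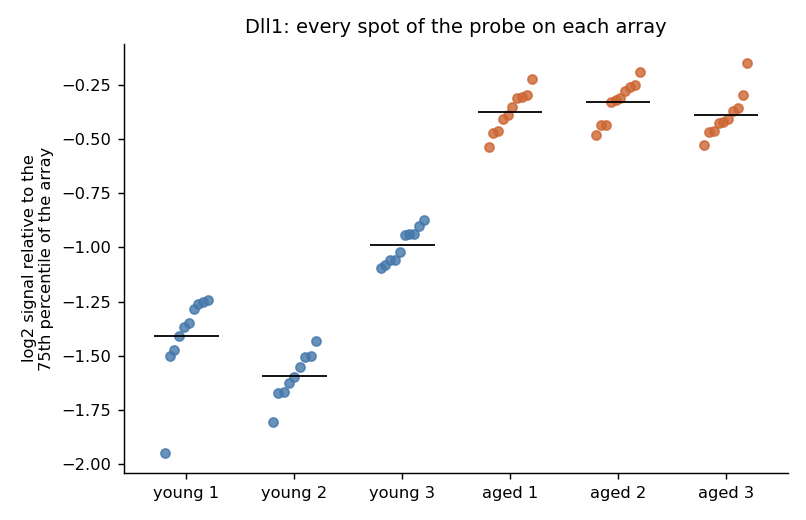
Every retained spot of the Dll1 probe is plotted by mouse, with the log2 signal relative to the 75th percentile of the array on the vertical axis and the mean of each array as a line. Spots of young mice end at -0.87 and spots of aged mice begin at -0.54.

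Jag1, the other ligand gene, also encodes a transmembrane protein. Its log2 level was 0.29, 0.54 and 0.60 in young mice and 1.37, 0.38 and 0.34 in aged mice. Only aged mouse 1 was above the young mice. The difference was 0.22 ± 0.30 (SE), or 1.17-fold, with an adjusted p of 0.754 in limma, and it was -0.11 without aged mouse 1. Within row 1 of the slide, where aged mouse 1 was the only aged mouse, it was 0.89 with an adjusted p of 0.253 in limma.

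The 3 receptors differed from each other in pattern. Notch3, known from vascular smooth muscle cells and pericytes and also expressed by satellite cells, had a log2 level of 2.08, 2.14 and 2.93 in young mice and 1.79, 1.73 and 1.67 in aged mice. All aged mice were below all young mice, and young mouse 3 stood above the other young mice. The difference was -0.66 ± 0.25 (SE), or 0.635-fold, with an adjusted p of 0.310 in limma. Without young mouse 3 the difference was -0.38, and within row 1 of the slide it was -0.59.

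Notch2, a receptor found in many cell types, had a log2 level of -0.76, -1.05 and -0.84 in young mice and -0.94, 0.78 and 1.20 in aged mice. Aged mice 2 and 3 were high, and aged mouse 1 lay within the range of the young mice. The mean difference was 1.23 ± 0.52 (SE), or 2.35-fold, with an adjusted p of 0.342 in limma. The high mice were also the mice in row 2 of the slide. Within row 1 the difference was -0.054, and without aged mouse 1 it was 1.87 with an adjusted p of 0.0282 in limma. For this gene the position on the slide and the mice cannot be told apart. A second Notch2 probe was well above background in no mouse and gave no level.

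Notch1, the receptor most studied in satellite cells, had a log2 level of -2.52, -1.61 and -0.52 in young mice and -1.98, -1.15 and -1.46 in aged mice. The aged mice lay within the wide range of the young mice. The difference was 0.023 ± 0.50 (SE), or 1.02-fold, with an adjusted p of 0.986 in limma and a 95% confidence interval of -1.16 to 1.21. Leaving out single mice moved it between -0.46 and 0.54. A second Notch1 probe was well above background in aged mouse 1 alone, with a processed signal of 65.0 there and 4.03 to 5.93 in the others.

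Rbpj, which binds DNA and turns from repressor to activator when the cut receptor joins it, had the smallest standard error of the 9 genes tested. Its log2 level was 2.02, 2.08 and 2.22 in young mice and 2.06, 2.13 and 2.15 in aged mice. The groups overlapped. The difference was 0.0078 ± 0.15 (SE), or 1.01-fold, with an adjusted p of 0.984 in limma. The 95% confidence interval of -0.35 to 0.36 was the narrowest of the 9 genes. A second Rbpj probe gave a difference of 0.065.

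The target genes Hey1, Heyl and Hes1 encode transcriptional repressors. Hey1 had a log2 level of 1.46, 1.21 and 1.40 in young mice and 0.76, -0.34 and -0.048 in aged mice. All aged mice were below all young mice, and aged mouse 1 was nearest to them. The difference was -1.23 ± 0.29 (SE), or 0.425-fold, with a 95% confidence interval of -1.93 to -0.54 and an adjusted p of 0.163 in limma, the 542nd smallest p of 20900 genes. Without aged mouse 1 it was -1.55 with an adjusted p of 0.0335 in limma. In that fit all young mice were in row 1 and all aged mice in row 2, so age and row cannot be told apart. Within row 1 of the slide, where aged mouse 1 was the only aged mouse, the Hey1 difference was -0.60.

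Heyl, a target gene known from smooth muscle cells and satellite cells, had a log2 level of 0.45, 0.32 and 1.07 in young mice and 0.11, 0.069 and -0.37 in aged mice. All aged mice were again below all young mice. The difference was -0.68 ± 0.25 (SE), or 0.625-fold, with an adjusted p of 0.301 in limma. It was -0.45 without young mouse 3 and -0.51 within row 1 of the slide.

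Hes1 was not well above background in any young mouse and was so in aged mouse 2 alone. Its processed signal was 19.3, 11.3 and 16.0 in young mice and 12.2, 31.2 and 13.1 in aged mice. No fold is given, since both groups lay at the limit of detection of this probe.

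**Figure D3:**
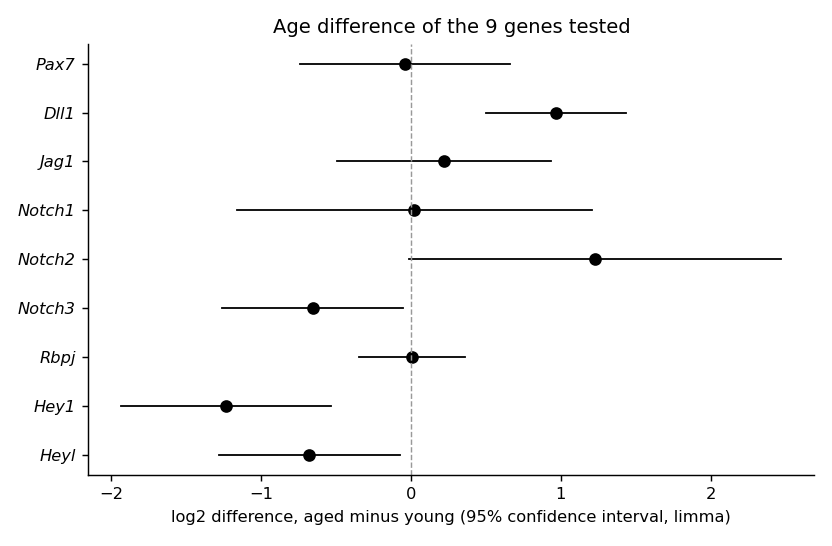
The log2 difference, aged minus young, of the 9 genes tested is plotted as a point with its 95% confidence interval from limma. The intervals of Dll1, Notch3, Hey1 and Heyl exclude 0 before adjustment for the number of genes, and those of Pax7, Jag1, Notch1, Notch2 and Rbpj include it.

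The rest of the pathway was described from 9 lists by role, with 69 genes in all, of which 67 were on the array and 65 were tested. None of the 65 passed an adjusted p of 0.05 in limma. At an unadjusted p under 0.05, 3 were higher and 5 lower, beside 5.72% and 9.02% of all genes. The groups did not overlap for 2 higher and 13 lower genes, beside 7.38% and 14.9% of all genes. The 13 include Nrarp and Maml2, named after their values were seen. Each was well above background in 3 of 3 young mice and 1 of 3 aged mice and so entered the test through the young group. The mean of aged mice was higher for 23 genes and lower for 42, with a median log2 difference of -0.13, beside -0.08 over all genes. Lower means were also the more common among all 20900 genes, with 12278 lower and 8622 higher. These 8 genes at an unadjusted p under 0.05 include Dll1, Notch3, Hey1 and Heyl described above.

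The other 4 were a receptor and 3 enzymes or subunits that act on receptors and ligands. Notch4, a receptor known from endothelium, had a log2 level of 1.43, 1.93 and 0.82 in young mice and 0.92, -0.17 and -0.27 in aged mice, a difference of -1.24 with an adjusted p of 0.258 in limma. Aged mice 2 and 3 were below all young mice, while aged mouse 1 was above young mouse 3, and within row 1 of the slide the difference was -0.48. Poglut1, which adds glucose to the receptors, differed by 1.23 and Mib1, the ubiquitin ligase that drives uptake of bound ligands, by 1.05, and for both genes the groups overlapped. Aph1a, a subunit of the gamma-secretase that cuts the receptor, differed by -0.55 without overlap, and by -0.29 within row 1 of the slide.

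The 5 ligands included 3 with a higher and 2 with a lower mean in aged mice. The other 3 ligands are named after their values were seen. Dll3 differed by 0.43 with overlap between the groups and was well above background in 2 mice of each group. Dll4, an endothelial ligand, had a log2 level of -1.92, -1.76 and -2.04 in young mice and -2.10, -2.51 and -4.90 in aged mice. All aged mice were below all young mice, but aged mouse 3 stood far below the others and was not well above background. The difference was -1.26 with an adjusted p of 0.434 in limma, and within row 1 of the slide it was -0.19. Jag2 differed by -0.43 without overlap. Of the 9 genes of the nuclear complex, which includes Rbpj and the Mastermind coactivators, 5 had a higher and 4 a lower mean. The median was 0.0078. The split was 0 and 9 under median scaling and 2 and 7 within row 1 of the slide. The 4 lower genes include Maml2, which entered the test through the young group. With only probes well above background in all 6 mice, 5 of 8 were higher and 3 lower. Of the 13 corepressors, 3 had a higher and 10 a lower mean, with a median of -0.14.

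The target gene list had 7 genes, of which Hes1 and Hey2 were too dim to be tested. The other 5 all had a lower mean in aged mice. Hey1 and Heyl are among these 5. The others, chosen after their values were seen, were Nrarp with -1.20, Hes5 with -0.82 and Hes7 with -0.23. Nrarp, a feedback inhibitor of the pathway, and Hes5 were well above background in 3 of 3 young mice and 1 of 3 aged mice, so both entered the test through the group where they were high, and the count of 5 is no support for a direction. The 3 genes detected in all 6 mice, Hey1, Heyl and Hes7, had a median difference of -0.68. After normexp background correction the median of the 5 was -0.42. Within row 1 of the slide 4 of the 5 were lower, and Hes5 was 0.047 above the young average in aged mouse 1.

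**Figure D4:**
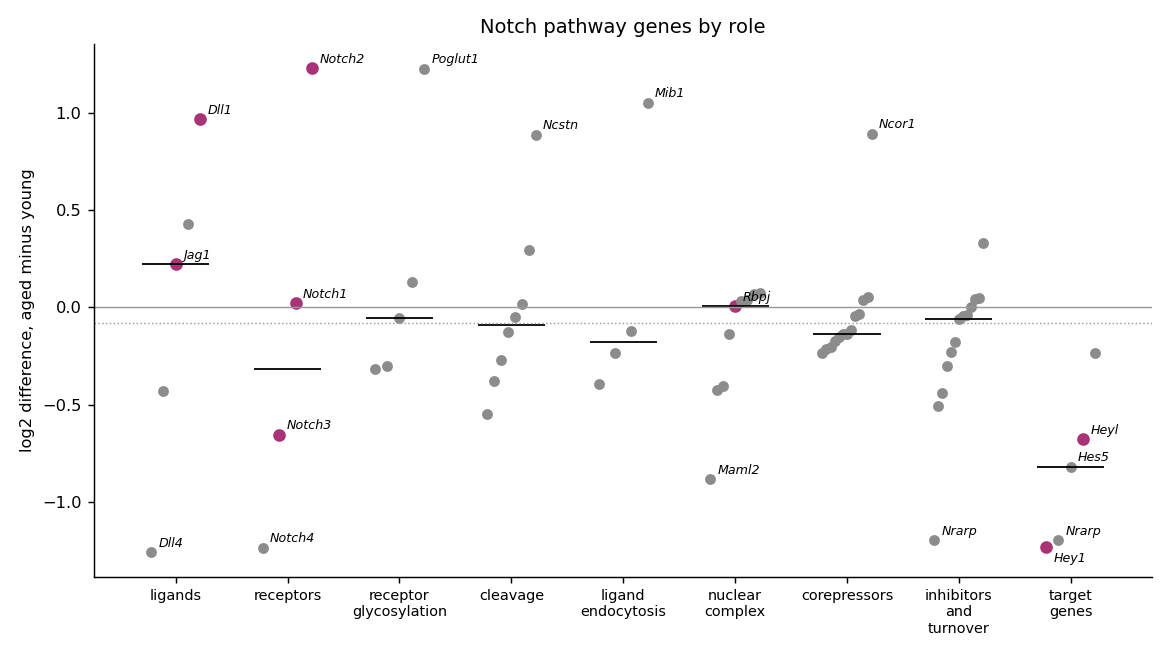
Each point is a tested gene of the Notch pathway at its log2 difference, aged minus young, grouped by role, with the median of each role as a line, the 8 tested Notch genes described above in purple (Nrarp is on 2 lists) and the median of all genes, -0.08, dotted. Of the 5 target genes, all below 0, Nrarp and Hes5 were well above background in 1 of 3 aged mice only.

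Other satellite cell markers were read beside Pax7 from a list of 18 genes, of which 17 were tested. Myf5, which primes satellite cells for the muscle lineage, was well above background in no mouse. None of the 17 passed an adjusted p of 0.05 in limma. At an unadjusted p under 0.05, 1 was higher and 4 lower, beside 5.72% and 9.02% of all genes. The median log2 difference was -0.17, beside -0.08 over all genes, with 6 higher and 11 lower means. With only probes well above background in all 6 mice, 6 of 15 were higher and 9 lower, with a median of -0.12. Over the 17 genes, the median deviation from the young mean was -0.19, -0.28 and -0.16 in aged mice and -0.19 to 0.13 in young mice. The list as a whole thus overlapped between the groups in aged mice 1 and 3. The markers described next are only those at an unadjusted p under 0.05, and they do not stand for the list.

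Among these markers, Megf10, an EGF-repeat membrane protein of satellite cells, had a log2 level of -2.49, -2.38 and -1.99 in young mice and -3.16, -3.18 and -3.16 in aged mice. All aged mice were below all young mice, with a difference of -0.88 ± 0.18 (SE), or 0.543-fold, and an adjusted p of 0.142 in limma. The difference ran from -1.01 to -0.40 over the alternative settings. Spry1, an inhibitor of growth factor signalling known from quiescent satellite cells, had a log2 level of 2.23, 2.42 and 2.45 in young mice and 1.86, 1.81 and 1.64 in aged mice. Again no mouse overlapped, and the difference was -0.60 ± 0.16 (SE), or 0.662-fold, with an adjusted p of 0.194 in limma.

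Calcr, the calcitonin receptor gene and a marker of quiescent satellite cells, had a log2 level of -3.43, -3.27 and -2.32 in young mice and -3.66, -3.91 and -5.09 in aged mice. It was well above background in 3 of 3 young and 1 of 3 aged mice and so entered the test through the young group. Its difference ran from -1.49 to -0.41 over the alternative settings. Peg3, an imprinted zinc finger gene, differed by -0.98 with overlap between the groups, and by -0.45 within row 1 of the slide. Ncam1, a cell adhesion gene that is carried by satellite cells and also appears on denervated fibres, was higher in all aged mice, with a difference of 0.96 and an adjusted p of 0.235 in limma. On the denervation response list, which also holds Ncam1, 9 of 10 genes had a higher mean in aged mice, with a median of 1.44. This count includes a gene well above background in aged mice only, which entered the test through that group. With only probes well above background in all 6 mice, 8 of 9 were higher, with a median of 1.12. The part of denervated fibres in the Ncam1 value was not tested.

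Markers of vessels were read beside Notch3, Notch4, Dll4, Hey1 and Heyl. Of 12 endothelial genes, all of them tested, 3 had a higher and 9 a lower mean in aged mice, with a median log2 difference of -0.35, and 3 were lower at an unadjusted p under 0.05, beside 9.02% of all genes. Within row 1 of the slide 6 were higher and 6 lower, with a median of -0.13. The mean level of the list was 1.52 to 1.88 in young mice and 1.31 to 1.72 in aged mice. Its brightest probes were those of Egfl7, with a difference of -0.45, and Flt1, a VEGF receptor gene, with -0.62. Of 10 mural cell genes, the markers of smooth muscle cells and pericytes, 1 had a higher and 9 a lower mean, with a median of -0.45, and 3 were lower at an unadjusted p under 0.05. Within row 1 all 10 were lower, with a median of -0.28, beside -0.084 over all genes. A lower level there was not particular to mural cell genes. Of the 11 muscle fibre genes, 10 were lower within row 1, with a median of -0.43. The mean level of the mural cell list was 2.18 to 2.37 in young mice and 1.90 to 1.96 in aged mice, without overlap. Its brightest probes, Mcam and Abcc9, differed by -0.13 and -0.52. The part of these cell types in the values of Notch3, Hey1 and Heyl was not tested.

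**Figure D5:**
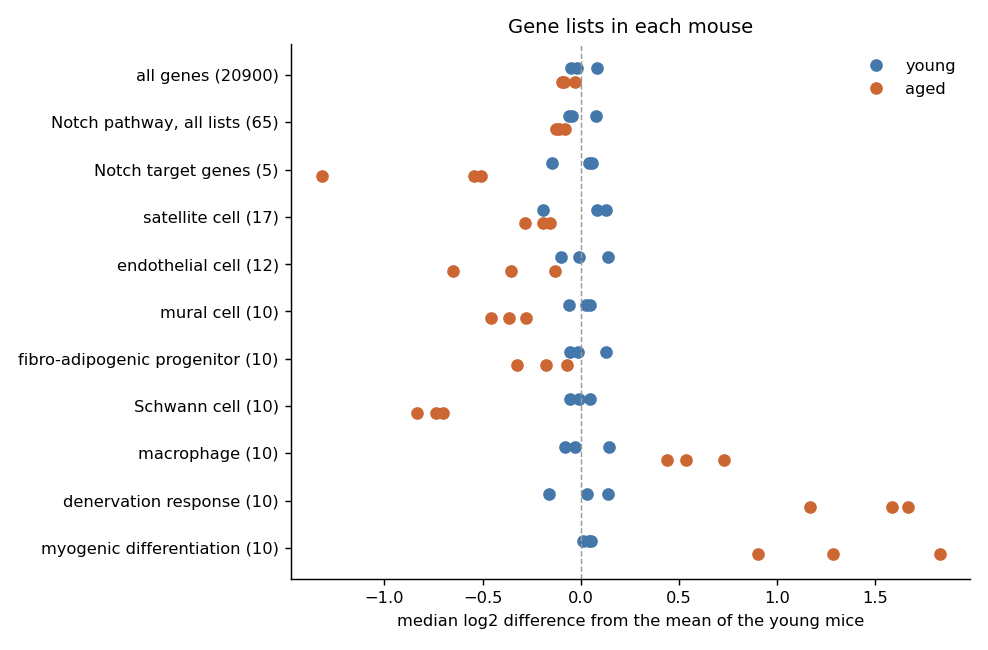
Each point is 1 mouse, at the median over the tested genes of a list of the log2 deviation from the average of the 3 young mice, with the number of genes tested in brackets. The satellite cell list overlaps between the groups, while the mural cell list has medians of -0.28, -0.46 and -0.37 in aged mice.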

How the data were processed

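Labelled RNA of each mouse was hybridized to 1 single-colour array. The authors deposited Agilent Feature Extraction output with the processed signal, an intensity on a linear scale after background subtraction and detrending, not scaled between arrays. The software version was 9.5 in the submitters' processing notes and 11.0.1.1 in the file headers. The deposited series matrix intensity was identical. Log2 signals of the 59305 non-control spots were taken, flagged spots (161 to 212 per array) were left out, repeated spots were averaged, and each array was scaled by subtracting its 75th percentile over all these spots. Of 55681 probes, 12 were lost to flags, and 28325 received a symbol by accession (RefSeq, GRCm38.p6). Probes well above background on at least 3 of 6 arrays were kept, and the brightest represented its gene. The age groups were tested in limma 3.58.1 under R 4.3.3 (lmFit, eBayes, Benjamini-Hochberg over 20900 genes, threshold 0.05), after a test on simulated data. The number of arrays limits the precision.

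The genes and lists were chosen with earlier results of these data known. Named beside the 10 genes were pathway and satellite cell genes at an unadjusted p under 0.05, the 2 brightest genes of each other list (1 of them is not reported here), and the 3 genes nearest to Pax7. Dll3, Dll4, Jag2, Maml2, Nrarp, Hes5, Hes7, Prx and Mbp were named after their values were seen. The labels name no pairing of the mice by replicate number. Correlations of same-numbered deviations were -0.062, -0.27 and 0.028, and those of other pairs ran from -0.21 to 0.35. These cannot decide on pairing, since deviations from the mean of 3 mice depend on each other. Alternatives covered background correction, scaling, filters, probe choice, the trend, slide row, replicate number and leaving out each mouse.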

Additional observations from a re-analysis of the deposited data

How the results depend on the processing

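Dll1, Notch3, Heyl and Hey1 kept their direction under all 17 alternatives, 11 of which changed the value at all. They lay between 0.66 and 1.14, -0.81 and -0.38, -0.82 and -0.45, and -1.55 and -0.60 on the log2 scale. Only without aged mouse 1 did 2 of the 9 genes pass the threshold, Notch2 and Hey1, with 2 of the pathway genes (the same 2). Both counts thus ranged from 0 to 2 over the leave-one-out fits. Without aged mouse 1, 193 of all 20900 genes passed. All young mice were then in row 1 of the slide and all aged mice in row 2, so age and row cannot be told apart. Other differences changed sign. Notch1 was -0.061 with normexp, -0.11 with median scaling and -0.43 with the slide row as a block, Rbpj -0.075, -0.12 and -0.049 in the same order, Pax7 0.015 with the percentile over detected probes, and Notch2 -0.054 with the row as a block. Leaving out single mice gave -0.33 to 0.19 for Pax7, -0.46 to 0.54 for Notch1, 0.80 to 1.87 for Notch2, -0.11 to 0.40 for Jag1, -1.55 to -1.0 for Hey1 and -0.037 to 0.066 for Rbpj. The cause of these changes was not tested. Median scaling moved the median of all genes by -0.13, and with it 54 rather than 42 of the 65 pathway genes were lower.

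Over all genes, 52 passed the threshold, and this count depended on the setting. It was 8 with no filter, where 36710 genes were tested, 32 with probes detected on all 6 arrays, where 18551 were tested, and 1 to 193 without single mice, with 1 without aged mouse 3 and 193 without aged mouse 1. With the replicate block it was 5, and none of the 9 genes passed. The labels name no pairing by these numbers. Signal over background limited Hes1, Hey2 and Myf5, which were not tested.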

Other observations

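Lists of other cell types were measured in the same mice, and none of their values was linked to Notch genes by a test. Of 10 macrophage genes tested, 8 had a higher mean in aged mice (median log2 difference 0.53), but the 2 with the brightest probes, Itgam with -0.27 and Csf1r with -0.07, did not. The 8 include a gene well above background in aged mice only, which entered the test through that group. With only probes well above background in all 6 mice, 7 of 9 were higher, with a median of 0.44. Of 10 Schwann cell genes, 8 had a lower and 2 a higher mean (median -0.69). Prx, a myelin gene among the lower 8, was named after its values were seen. It passed an adjusted p of 0.05 in limma, as 0.249% of all genes did, and it passed in 7 of 17 alternatives. Mbp, also a myelin gene named after its values were seen, was higher in aged mice by 1.31, without overlap. Its adjusted p was 0.0541 in limma. Pmp22, a myelin gene, differed by -0.75. Of 10 fibro-adipogenic progenitor genes, 7 had a lower mean (median -0.24), with Dcn at -0.87 and Gsn at -0.65.

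Genes of muscle differentiation and of denervated muscle had mostly higher means. Of 10 myogenic differentiation genes, 7 had a higher mean in aged mice (median 1.51). At an unadjusted p under 0.05, 6 were higher, beside 5.72% of all genes, none of them past the threshold in limma. With only probes well above background in all 6 mice, 5 of 8 had a higher mean, with a median of 1.27. Myf6 differed by 1.36, while Myh8, 1 of the 3 genes with a lower mean, differed by -0.20. Whether the Myh8 probe also reads near-identical myosin genes was not tested. Of the denervation response genes with the brightest probes, Chrna1, an acetylcholine receptor subunit, differed by 1.82 and Musk, the kinase of the neuromuscular synapse, by 0.97. The muscle fibre list had a median of -0.20, with Tnnt3 at -0.29 and Actn3 at -0.15.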
